A study of Mus musculus with 24 samples.

Results

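The mammalian mitochondrial ribosome translates the mRNAs of the mitochondrial genome, which encode core subunits of the respiratory chain and of ATP synthase. Its proteins are encoded in the nucleus, made in the cytosol and imported into the organelle, where they assemble with mitochondrially transcribed rRNA into a large and a small subunit. Genes named Mrpl are named for the large subunit and genes named Mrps for the small subunit, and many but not all of the proteins have a counterpart in the bacterial ribosome. Cartilage is poorly supplied with oxygen and chondrocytes rely heavily on glycolysis, and interleukin-1β (IL-1β), an inflammatory cytokine of joint disease, is known to depress mitochondrial respiration in cultured chondrocytes.

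The mitochondrial ribosomal protein genes were taken as the genes of the expression table whose symbol starts with Mrpl or Mrps followed by a digit. They numbered 78 of 17094 genes, 49 with an Mrpl and 29 with an Mrps symbol. All 78 passed the filter on low values, which asked for at least 1 FPKM in at least 3 libraries and left 12178 genes to test. FPKM, the deposited unit, is the number of sequenced fragments scaled by gene length and by library total, so levels of different genes are compared per length.

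The RNA came from wild-type mouse primary chondrocytes, the cells of cartilage, grown in the lower chamber of transwell plates. Poly(A)-selected RNA was sequenced in 24 libraries, 3 in each of 8 groups. The groups were co-culture with primary dermal fibroblasts and 10 ng/ml IL-1β at 72 h or 36 h, normal culture with 10 ng/ml IL-1β at 72 h or 36 h, co-culture without IL-1β at 72 h or 36 h, and normal culture without IL-1β at 72 h or 36 h. No source used here gives the medium of the co-cultures or the age of the mice. Nor is it given whether the 3 libraries of a group came from separate animals or cultures. The p-values thus rest on the spread between libraries, which may be technical and was pooled per gene over all 8 groups. In the IL-1β groups at 72 h, the residual SD of the mitochondrial ribosomal protein genes was 0.175 in normal culture and 0.122 in co-culture. In the other groups it was 0.069 to 0.095. The pooled spread understates that of the IL-1β groups at 72 h, so p-values that use these groups may be too small.

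Library sums lay between 438242 and 506621 FPKM, and 11335 to 11607 genes reached 1 FPKM. The absolute depth is unknown. Only 67.6% of the 1566 values examined in 138 low genes came out whole, at a tolerance of 0.12, when divided by the smallest step, so reads could not be recovered. Replicate 3 of each IL-1β group at 72 h stood apart, with the highest library sums of all 24. In normal culture with IL-1β at 72 h, 77 of the 78 genes were higher in replicate 3 than in both other replicates, with a median difference of 0.26 on the log2(FPKM + 1) scale against 0.0085 over all tested genes. In co-culture with IL-1β at 72 h, replicate 3 was above both others for 68 of the 78 genes, with a median difference of 0.16 against 0.0062 over all tested genes. The same libraries were shifted by gene length: of 3 equal classes by exonic length, the short genes stood at 0.15 and 0.13 against the other replicates, while the long genes stood at -0.13 and -0.11 against them, in normal culture and co-culture. Of the 78 genes, 56 fell in the short class, 14 in the middle and 8 in the long class. Counts of the 78 genes that rest on these libraries are given with and without them. The same is done for the calls of the genes described, though only in part for the IL-1β difference between times.

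The label of the cells was checked against marker genes. Of 13 chondrocyte markers, 11 passed the filter, and type II collagen (Col2a1) averaged 361 FPKM over all libraries, with a range of 112 to 804 FPKM. Matn1 was at or near 0, with at most 0.07 FPKM. Lum and Dcn, matrix genes of fibroblasts and other connective tissue cells, averaged 401 and 789 FPKM. Of 8 macrophage markers 6 passed the filter, and Lyz2 averaged 70.8 FPKM while Ptprc stayed at or below 0.65 FPKM. All 8 skeletal muscle markers passed, with Acta1 at a mean of 49.8 FPKM. None of 5 endothelial markers passed. In these bulk samples, fewer cells of a type and less RNA per cell cannot be told apart.

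The promoters of 6 genes are shown as examples, since these genes are described one by one below and between them carry 5 of the searched motifs. Mrps6 and Mrpl20 were among the genes with the largest rise between the times, Mrpl34, Mrpl53 and Mrpl39 were higher with IL-1β, and Mrps11 was lower with IL-1β in all 4 comparisons. Each line gives the 150 bases before the transcription start of the RefSeq annotation on GRCm38.p6, 5′ to 3′ on the gene's own strand. Capitals mark matches, on either strand, to a searched motif.
Mrps6: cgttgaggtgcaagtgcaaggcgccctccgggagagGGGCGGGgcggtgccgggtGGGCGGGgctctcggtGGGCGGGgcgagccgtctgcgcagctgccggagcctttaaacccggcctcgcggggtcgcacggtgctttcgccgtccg
Mrpl20: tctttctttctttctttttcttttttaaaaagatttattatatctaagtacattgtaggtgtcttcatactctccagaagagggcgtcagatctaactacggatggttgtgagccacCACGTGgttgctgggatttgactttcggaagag
Mrpl34: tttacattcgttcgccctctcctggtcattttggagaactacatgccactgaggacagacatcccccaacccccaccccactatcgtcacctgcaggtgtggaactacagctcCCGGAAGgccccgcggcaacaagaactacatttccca
Mrpl53: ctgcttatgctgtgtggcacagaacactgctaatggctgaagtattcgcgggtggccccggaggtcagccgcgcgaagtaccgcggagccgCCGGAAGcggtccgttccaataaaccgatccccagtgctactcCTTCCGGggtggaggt
Mrpl39: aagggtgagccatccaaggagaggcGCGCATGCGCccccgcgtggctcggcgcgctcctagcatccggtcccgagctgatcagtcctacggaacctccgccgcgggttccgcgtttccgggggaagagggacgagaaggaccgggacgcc
Mrps11: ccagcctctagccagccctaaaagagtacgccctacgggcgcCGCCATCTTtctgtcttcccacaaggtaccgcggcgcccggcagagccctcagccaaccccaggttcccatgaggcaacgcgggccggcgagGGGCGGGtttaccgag

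The Mrps6 stretch lies at chr16:92058186-92058335 on the plus strand, and its capitals are 3 GC boxes whose first bases lie at -114, -95 and -79, counted from -1 for the base just before the start. The Mrpl20 stretch lies at chr4:155802728-155802877 on the plus strand and holds an E-box that begins at -33. At chr8:71464776-71464925 on the plus strand, the Mrpl34 stretch holds an ETS motif at -37. At chr6:83108958-83109107 on the plus strand, the Mrpl53 stretch holds a pair of ETS motifs, one on each strand, at -59 and -16. The Mrpl39 stretch, at chr16:84735245-84735394 on the minus strand, holds an NRF1 motif at -125. The Mrps11 stretch, at chr7:78782981-78783130 on the plus strand, holds a YY1 motif at -108 and a GC box at -16.

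The motifs were searched in the RefSeq windows from 250 bases before to 50 bases after each start, which were available for 69 of the 78 genes and for 27025 mouse genes, 13485 of them in the expression table. The core bound by ETS factors such as GABP (CCGGAAG, reverse complement CTTCCGG) was present in 26 of the 69 genes (37.7%), against 16.3% of the table genes and 9.93% of all genes. The YY1 motif (AAGATGGCG, reverse complement CGCCATCTT) was found in 8 (11.6%), against 2.72% of table genes and 1.64% of all genes. The NRF1 motif was found in 3 (4.35%), namely Mrpl32, Mrpl39 and Mrpl9, against 1.87% of table genes and 1.07% of all genes. GC boxes (GGGCGGG, reverse complement CCCGCCC) were in 29 (42.0%), against 45.8% of table genes and 27.9% of all genes. E-boxes (CACGTG, its own reverse complement) were in 5 (7.25%), against 10.5% of table genes and 8.09% of all genes. An NF-kB motif was in none of the 69, against 0.208% of table genes and 0.174% of all genes. Matches of the ETS and YY1 motifs can overlap in their letters. These matches describe letters in a window and were not tested.

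The 78 genes were expressed in every library. Their means over all libraries ran from 4.77 FPKM for Mrpl19 to 117 FPKM for Mrpl33, with a median of 23.2 FPKM against 10.4 FPKM for the tested genes. After Mrpl33, the highest means were those of Mrps21 (75.9 FPKM), Mrpl30 (74.9 FPKM), Mrpl52 (63.8 FPKM) and Mrpl13 (57.5 FPKM). Above Mrpl19, the lowest were those of Mrpl35 (5.92 FPKM), Mrpl41 (6.31 FPKM), Mrps25 (7.32 FPKM) and Mrpl17 (8.37 FPKM). The mean exceeded 10 FPKM for 70 genes and 50 FPKM for 7. Levels moved little: the highest library divided by the lowest was 1.26 for the steadiest gene and 2.97 for the most variable, with a median of 1.61. Together the genes made up 0.399% to 0.530% of a library's FPKM sum.

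**Figure D1:**
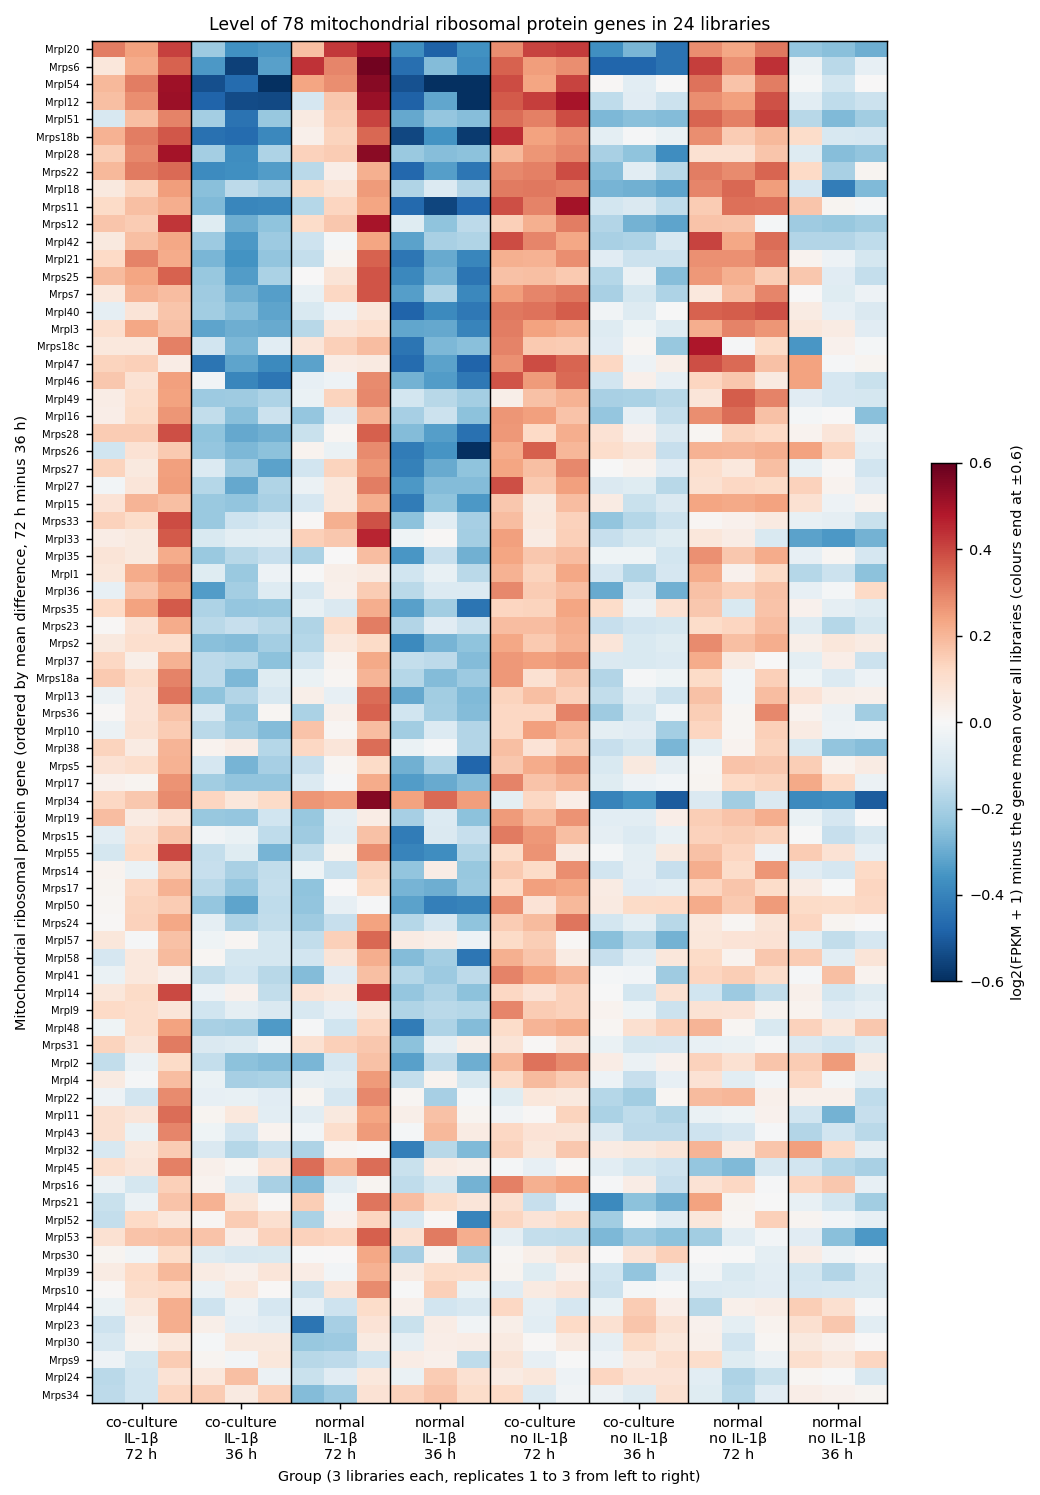
Level of each of the 78 genes (rows) in each of the 24 libraries (columns, 3 per group), as log2(FPKM + 1) minus the gene's mean over all libraries, with rows ordered by the mean difference between 72 h and 36 h. Red is above and blue below the gene's mean, and colours end at 0.6 on either side. The 72 h libraries are redder than the 36 h libraries in most rows, and Mrpl34 and Mrpl53 are red in the IL-1β libraries.

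Time in culture was the condition with which most of the 78 genes moved. At 72 h, compared with 36 h, 33 to 57 of the 78 genes were higher in each of the 4 culture conditions, and at most 1 was lower. In the IL-1β groups, time in culture and time with the cytokine cannot be told apart. The summed level of the 78 genes was 2140, 2253 and 2496 FPKM at 72 h, against 1937, 1888 and 1907 FPKM at 36 h, in co-culture with IL-1β. In normal culture with IL-1β the sums were 2046, 2160 and 2531 FPKM at 72 h and 1831, 1939 and 1815 FPKM at 36 h. In co-culture without IL-1β they were 2411, 2335 and 2392 FPKM at 72 h and 1943, 1985 and 1960.01 FPKM at 36 h. In normal culture without IL-1β they were 2319, 2220.1 and 2285 FPKM at 72 h and 2083, 2002 and 1971 FPKM at 36 h. In each condition the lowest 72 h library was above the highest 36 h library, as deposited and after either rescaling.

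**Figure D2:**
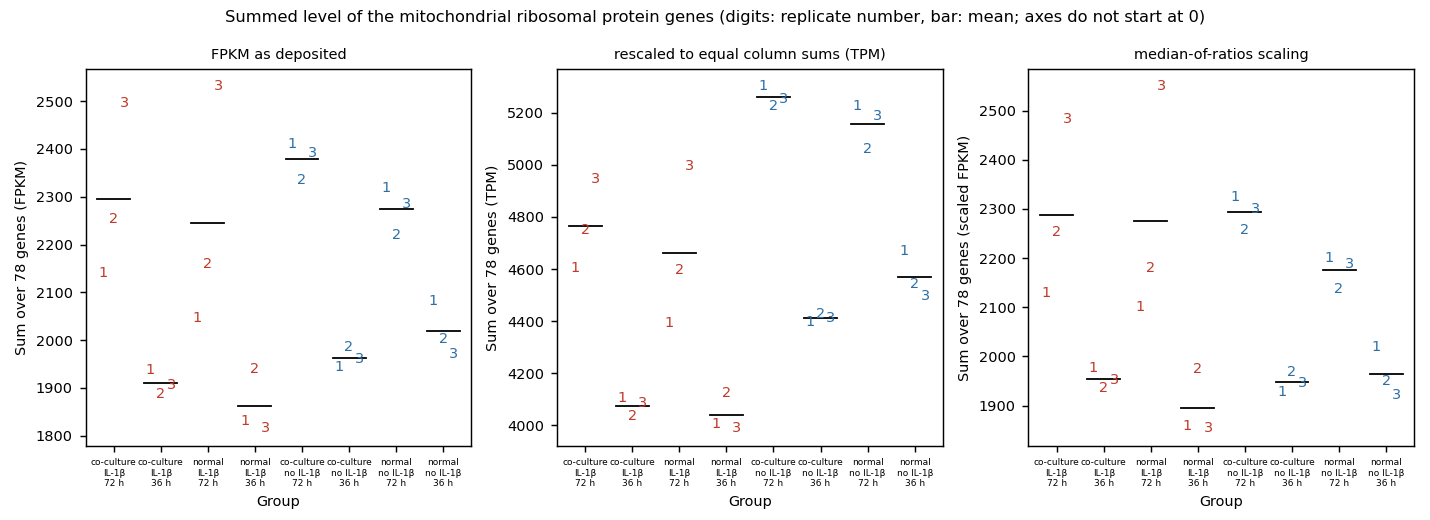
Sum over the 78 genes in each library by group, in FPKM as deposited (left), after rescaling each library to the same total, which gives TPM (middle), and after median-of-ratios scaling (right). Digits are replicate numbers, bars are group means, red marks IL-1β groups and blue marks groups without IL-1β, and the axes do not start at 0. In every pair the 72 h libraries lie above the 36 h libraries, and replicate 3 of each IL-1β group at 72 h is the highest of its group.

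Tested gene by gene with limma on log2(FPKM + 1), 53 of 78 genes rose at 72 h in co-culture with IL-1β and 0 fell, where 35.4% of all tested genes rose and 28.9% fell (adjusted p under 0.05). In normal culture with IL-1β, 52 rose and 1 fell, against a background of 37.1% and 32.0%. In co-culture without IL-1β, 57 rose and 0 fell, against 36.6% and 24.9%, and in normal culture without IL-1β, 33 rose and 0 fell, against 33.1% and 25.3%. Where no gene passed as lower, the unadjusted p was under 0.05 for 1 lower gene in co-culture with IL-1β and for none in the other conditions. Median log2 differences of the 78 genes were 0.29, 0.28, 0.28 and 0.14 in the same order of conditions, against 0.022, 0.022, 0.047 and 0.033 over all tested genes. The medians of the 78 genes were positive under both rescalings too, between 0.12 and 0.27. All 3 libraries at 72 h lay above all 3 at 36 h for 55, 46, 62 and 39 genes, against 36.7%, 34.9%, 42.1% and 38.8% of all tested genes. In untreated normal culture the share of genes that rose, 42.3%, was the one nearest to its background.

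**Figure D3:**
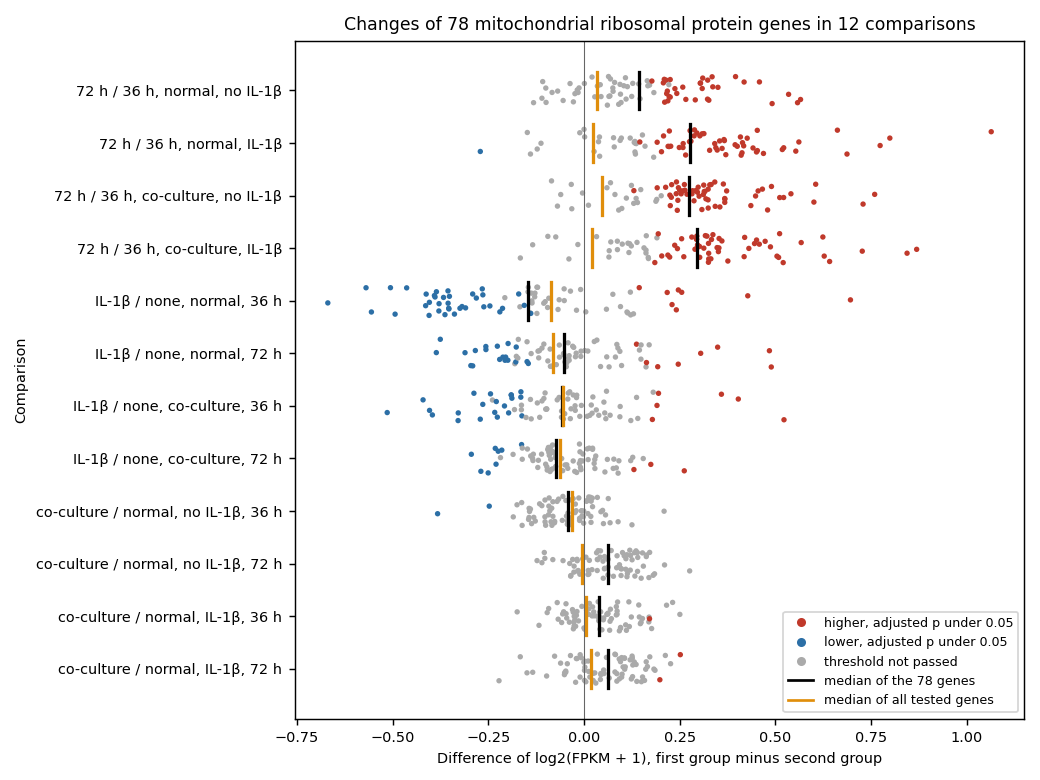
Difference of log2(FPKM + 1) for each of the 78 genes (points) in 12 comparisons, named on the vertical axis with the first group over the second. Red and blue points passed as higher and lower at an adjusted p under 0.05, grey points did not, and the black and orange bars are the medians of the 78 genes and of all tested genes. In the 4 time comparisons the median of the 78 genes lies right of that of all genes, whereas the 2 medians lie within 0.1 of each other in the other 8.

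**Figure D4:**
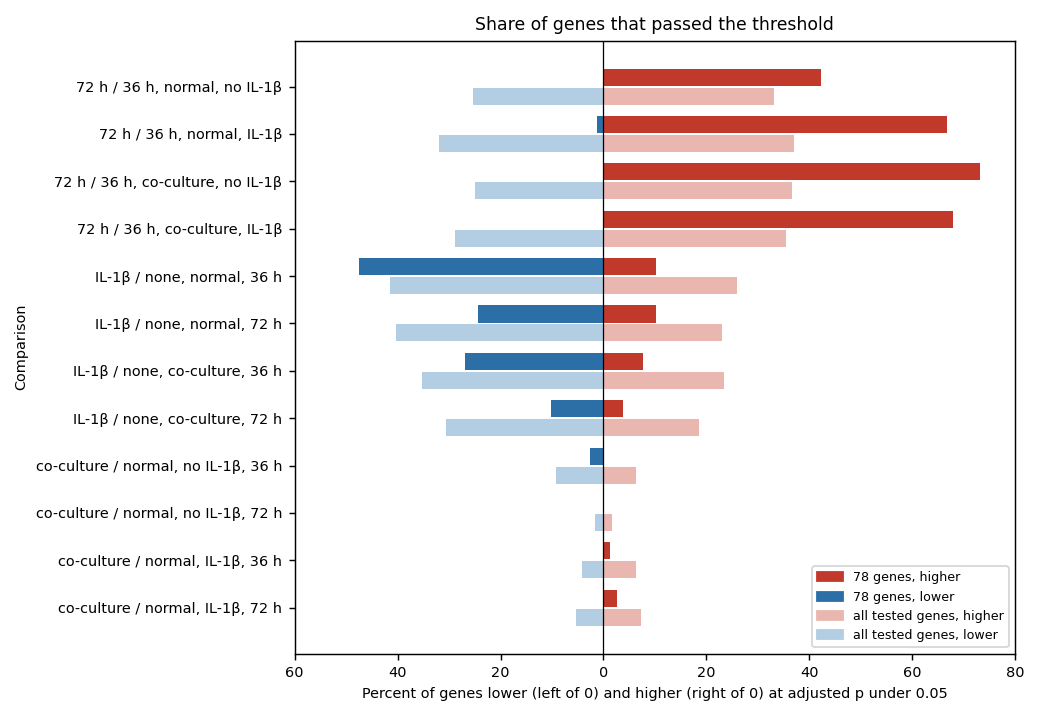
Percent of genes that passed as higher (right of 0) or lower (left of 0) in each of 12 comparisons, dark bars for the 78 genes and pale bars for all 12178 tested genes. In the time comparisons the dark bars reach 42.3% to 73.1% on the right and at most 1.28% on the left. The co-culture comparisons have short or no dark bars.

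In total 25 of the 78 genes rose in all 4 time comparisons, which share no library, against 18.8% of all tested genes. None fell in all 4, against 13.1% of all tested genes. A further 19 rose in 3 comparisons, 14 in 2 and 10 in 1. The rises were small: 1 difference in the 4 comparisons exceeded a doubling, and the largest for each gene that rose in all 4 lay between 0.29 and 1.06 on the log2 scale.

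Mrpl54, a large-subunit protein without a bacterial counterpart, had 47.3, 51.0 and 58.9 FPKM at 72 h in co-culture with IL-1β, against 28.3, 29.6 and 26.6 FPKM at 36 h. In normal culture with IL-1β it had 48.7, 50.04 and 60.5 FPKM at 72 h, against 28.3, 26.2 and 20.4 FPKM at 36 h. Without IL-1β the 72 h values were 54.2, 48.7 and 54.8 FPKM in co-culture and 51.9, 46.4 and 51.1 FPKM in normal culture, and the 36 h values were 41.3, 39.4 and 41.1 FPKM in co-culture and 40.7, 38.0 and 41.2 FPKM in normal culture. All 12 libraries at 72 h had 46.4 to 60.6 FPKM, and the IL-1β libraries at 36 h were the low ones, with no overlap between the times in any condition. The log2 differences were 0.87 and 1.06 with IL-1β (SE 0.096, adjusted p 6.56e-08 and 2.2e-09), and 0.36 and 0.31 without it (SE 0.096, adjusted p 0.00237 and 0.00851). The annotation places Mrpl54 on chromosome 10 (chr10:81264713-81266934, minus strand, GRCm38), with its start 26 bases from that of Apba3 on the other strand.

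Mrps6 is the counterpart of bacterial S6 in the small subunit, and it rose in all 4 conditions. It had 32.0, 35.8 and 39.2 FPKM at 72 h and 23.8, 20.4 and 24.1 FPKM at 36 h in co-culture with IL-1β. The values in normal culture with IL-1β were 41.5, 37.6 and 46.1 FPKM at 72 h and 22.0, 25.4 and 23.3 FPKM at 36 h. Each 72 h library was above each 36 h library of the same condition, here and without IL-1β. Untreated co-cultures had 39.3, 36.5 and 37.3 FPKM at 72 h and 21.6, 21.7 and 22.2 FPKM at 36 h, and untreated normal cultures had 41.0, 37.2 and 41.7 FPKM at 72 h and 29.8, 27.1 and 29.4 FPKM at 36 h. The log2 differences ran from 0.46 ± 0.077 (SE) in untreated normal culture to 0.80 ± 0.077 in normal culture with IL-1β, with adjusted p between 6.95e-09 and 2.74e-05. Mrps6 shares 305 exonic bases with Gm49711 on the same strand, and how reads were counted is not given here, so its level is uncertain.

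Mrpl20, whose bacterial counterpart L20 is needed early in large-subunit assembly, was as regular. Its levels were 38.2, 36.6 and 41.1 FPKM at 72 h and 26.3, 23.7 and 24.0 FPKM at 36 h in co-culture with IL-1β, and 35.02, 41.6 and 44.0 FPKM at 72 h and 23.6, 21.7 and 23.7 FPKM at 36 h in normal culture with IL-1β. Without IL-1β they were 37.6, 41.0 and 41.5 FPKM at 72 h and 23.6, 25.3 and 22.4 FPKM at 36 h in co-culture, and 37.5, 36.3 and 38.5 FPKM at 72 h and 26.0, 25.7 and 24.9 FPKM at 36 h in normal culture. All 12 libraries at 72 h exceeded all 12 at 36 h. The log2 differences were 0.63, 0.77, 0.73 and 0.53 (SE 0.068 each), with adjusted p of at most 6.38e-07. Mrpl20 lies on the plus strand of chromosome 4 (chr4:155802878-155809975).

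Mrpl12, the stalk protein of the large subunit that also binds the mitochondrial RNA polymerase, rose by 0.84 and 0.69 with IL-1β in co-culture and normal culture, and by 0.54 and 0.42 without it (log2, SE 0.107, adjusted p between 5.13e-07 and 0.00202). Its mean was 47.4 ± 5.83 FPKM at 72 h and 25.9 ± 0.597 FPKM at 36 h in co-culture with IL-1β (SD, n = 3 each). Of the 3 Mrps18 paralogs, which are related in sequence and sit at different places in the ribosome, Mrps18b and Mrps18c rose in all 4 comparisons and Mrps18a in 3. Mrps18b had 30.9, 33.1 and 34.8 FPKM at 72 h and 19.3, 19.1 and 20.1 FPKM at 36 h in co-culture with IL-1β, a log2 difference of 0.73 (adjusted p 2.66e-08), without overlap. For Mrps18a the difference was 0.35 there (adjusted p 0.000115) and 0.13 in untreated normal culture (adjusted p 0.116), and for Mrps18c it was 0.29 and 0.31 (adjusted p 0.0212 and 0.0174). The call of Mrps18b in untreated normal culture, a difference of 0.24, was lost without replicate 3 at 36 h (adjusted p 0.05004).

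**Figure D5:**
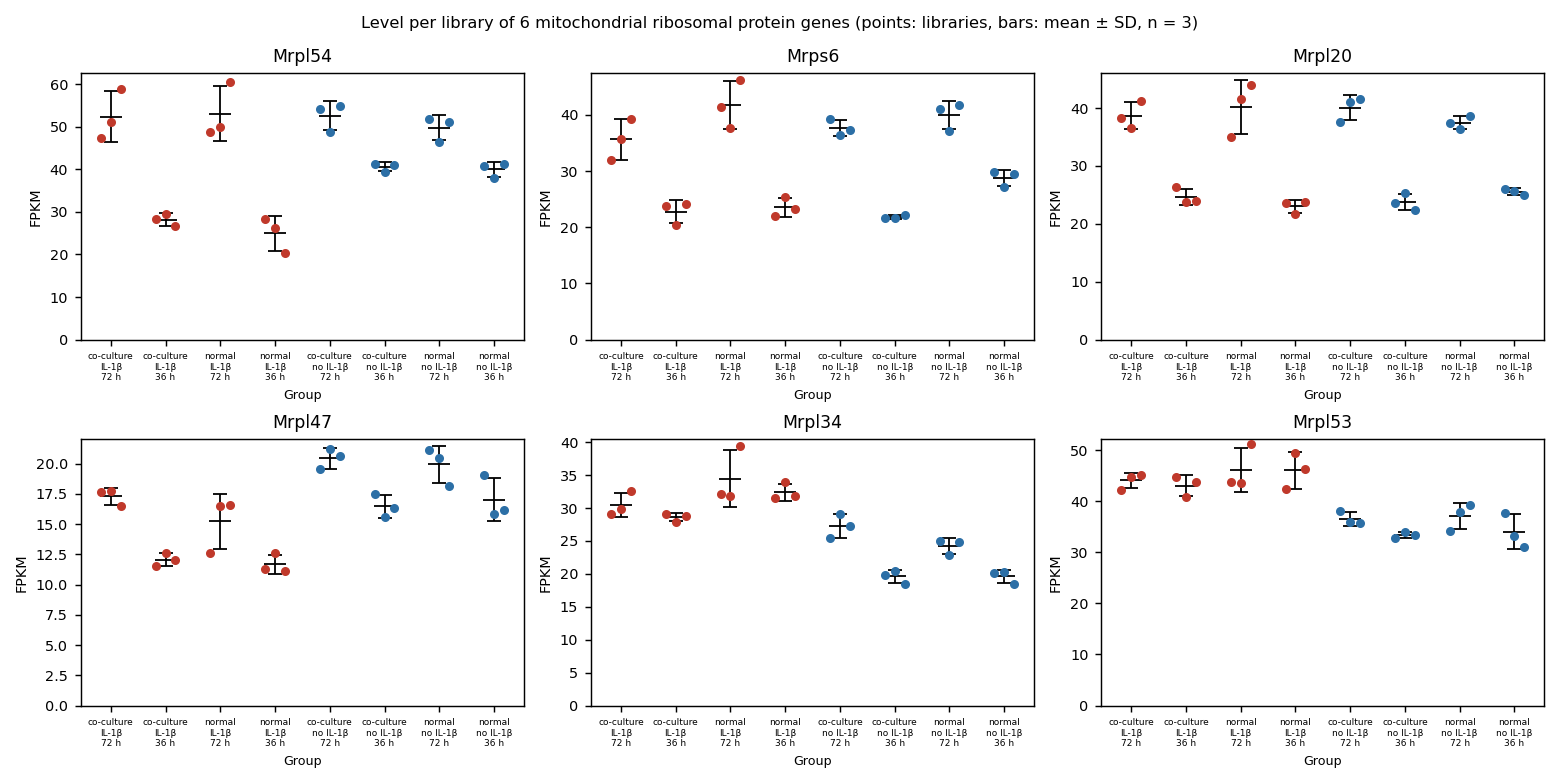
FPKM of Mrpl54, Mrps6, Mrpl20, Mrpl47, Mrpl34 and Mrpl53 in each library (points) by group, red with and blue without IL-1β, with the group mean and SD (bars, n = 3) and axes from 0. Mrpl54, Mrps6 and Mrpl20 are higher at 72 h than at 36 h in each pair. Mrpl47 is lower in the IL-1β groups and Mrpl34 and Mrpl53 are higher, except that Mrpl34 overlaps between the co-culture groups at 72 h.

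Other genes with a rise in all 4 comparisons included Mrpl51 and Mrpl42, large-subunit proteins without a bacterial counterpart, and Mrpl18 and Mrpl28, which have one. Mrpl51 averaged 29.2 ± 1.05 FPKM at 72 h and 19.4 ± 0.677 FPKM at 36 h in untreated normal culture (SD, n = 3 each), where it had the largest log2 difference of the 78 genes, 0.57 ± 0.084 (SE, adjusted p 5.15e-06). Mrpl18 averaged 53.2 ± 1.75 FPKM at 72 h and 36.0 ± 4.03 FPKM at 36 h in that condition, a log2 difference of 0.56 ± 0.062 (adjusted p 9.53e-08). Its exons overlap those of Tcp1, a chaperonin gene with a mean of 178 FPKM, and strand was not stated for the counting, so the level of Mrpl18 is uncertain. In untreated co-culture Mrps6, Mrpl18 and Mrpl51 had 0.76, 0.61 and 0.60 (adjusted p of at most 2.27e-06), and Mrpl42 had 0.49 in untreated normal culture (adjusted p 4.14e-06). Mrps12, a protein of the decoding centre, and Mrps22, a small-subunit protein without a bacterial counterpart, rose by up to 0.48 and 0.64.

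Mrps34, a small-subunit protein without a bacterial counterpart, was the single gene that fell in the values as deposited. It had 22.8, 23.5 and 29.3 FPKM at 72 h, against 30.4, 31.1 and 29.8 FPKM at 36 h, in normal culture with IL-1β. All 3 libraries at 72 h lay below those at 36 h, although replicate 3 at 72 h came close to them. The log2 difference was -0.27 ± 0.078 (SE, adjusted p 0.00409). Differences in the other conditions were -0.17 in co-culture with IL-1β (adjusted p 0.0673), -0.13 in untreated normal culture (adjusted p 0.155) and 0.01 in untreated co-culture (adjusted p 0.906). In TPM, 5 genes fell in normal culture with IL-1β and 2 in co-culture with IL-1β, and 2 in each with median-of-ratios scaling. Without replicate 3 at 72 h, 4 genes fell in normal culture with IL-1β and 2 in co-culture with IL-1β. The count of genes that fell in normal culture with IL-1β was 3 without replicate 1 at 36 h and 2 without replicate 3 at 36 h, and in co-culture with IL-1β it was 1 without replicate 3 at 36 h.

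In 9 genes no time comparison passed: Mrpl30, Mrpl23, Mrpl22, Mrps10, Mrpl24, Mrpl53, Mrpl52, Mrpl44 and Mrps9. The share of all tested genes in which none passed is not given here. Mrpl30, the third most expressed of the 78, had 63.7 to 81.0 FPKM over the 24 libraries. Exons of Mrpl24 overlap those of Rrnad1 and Mrpl23 has a named pseudogene, so both levels are uncertain.

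The rise at 72 h was seen among genes with an Mrpl and with an Mrps symbol. Among the 49 Mrpl genes 32, 31, 35 and 20 rose in co-culture with IL-1β, normal culture with IL-1β, untreated co-culture and untreated normal culture, and among the 29 Mrps genes 21, 21, 22 and 13 did. By an annotation of bacterial counterparts that was added after the values were seen, 34, 28, 36 and 23 of 46 genes with a counterpart rose, and 19, 23, 20 and 10 of 31 without a simple one. Mrps36, now known as a part of the α-ketoglutarate dehydrogenase complex, was not classed. By length, the 8 genes in the long class had median log2 differences of 0.34, 0.33, 0.25 and 0.14, where all long genes had -0.045, -0.075, -0.0064 and 0.025. The 56 genes in the short class had 0.29, 0.28, 0.30 and 0.14, where all short genes had 0.097, 0.12, 0.11 and 0.045.

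Without replicate 3 of both IL-1β groups at 72 h, 48 genes rose and 2 fell in co-culture with IL-1β, and 47 rose and 4 fell in normal culture with IL-1β. Without them the log2 differences in co-culture and normal culture with IL-1β were 0.78 and 0.97 for Mrpl54, 0.55 and 0.73 for Mrps6 and 0.58 and 0.71 for Mrpl20, with adjusted p of at most 1.54e-06. That fit ended the calls of Mrpl2, Mrpl33, Mrpl55, Mrps14 and Mrps18c in co-culture and of Mrpl2, Mrpl37, Mrpl9, Mrps23 and Mrps36 in normal culture. Genes that passed as lower in it but not with all libraries were Mrps34 (-0.25, adjusted p 0.000519) and Mrpl24 in co-culture, and Mrpl23, Mrpl24 and Mrpl30 in normal culture. Markers of other cell types moved with time as well. The skeletal muscle markers fell for 6, 7, 8 and 8 of 8 genes, in the order co-culture with IL-1β, normal culture with IL-1β, untreated co-culture and untreated normal culture. Their summed level was 88.0 to 116, 76.6 to 85.9, 48.8 to 57.5 and 35.9 to 42.9 FPKM at 72 h, against 197 to 213, 238 to 261, 187 to 211 and 209 to 238 FPKM at 36 h, and none was at 0. Of the 6 macrophage markers 5, 5, 6 and 6 rose and 0, 1, 0 and 0 fell, and the sum of all 8 listed was 123 to 139, 117 to 129, 87.4 to 97.7 and 91.7 to 99.6 FPKM at 72 h, against 56.9 to 68.6, 62.1 to 71.9, 48.5 to 52.6 and 49.97 to 57.6 FPKM at 36 h. Lyz2 made up most of these sums, with group means of 115, 112, 73.9 and 73.1 FPKM at 72 h and 52.0, 57.5, 40.3 and 42.6 FPKM at 36 h. Ptprc and Aif1 stayed below 1 FPKM in every library. Of 10 dermal fibroblast markers 9, 8, 5 and 6 fell and 1 rose in each condition. The part of these cells in the rise of the 78 genes was not tested.

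Genes that serve the mitochondrial ribosome in other ways were followed from lists of textbook members. The conditions are again co-culture with IL-1β, normal culture with IL-1β, untreated co-culture and untreated normal culture. Of all tested genes 35.4%, 37.1%, 36.6% and 33.1% rose there at 72 h, and 28.9%, 32.0%, 24.9% and 25.3% fell. Of 5 ribosomal proteins with other symbols, 3, 4, 4 and 1 rose at 72 h and none fell, in the same order of conditions. Ptcd3, a pentatricopeptide protein of the small subunit, rose by 0.86 in normal culture with IL-1β (adjusted p 3.39e-12) and by 0.57 in untreated co-culture (adjusted p 4.51e-09). In normal culture with IL-1β, Dap3 (0.35), Gadd45gip1 (0.41) and Chchd1 (0.23) rose, and Aurkaip1 had a difference of 0.08 (adjusted p 0.409). Of 24 genes of protein import and mitochondrial chaperones, 22, 21, 19 and 17 rose and 0, 0, 0 and 1 fell, with Tomm40, the channel of the outer membrane, at 1.08 and Timm50, a receptor of the inner membrane, at 0.98 in normal culture with IL-1β. Of 13 translation factors, 7, 5, 8 and 3 rose and none fell, led in normal culture with IL-1β by Tufm, the elongation factor Tu, at 0.64 and by Tsfm, its exchange factor, at 0.43.

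Of 28 genes of ribosome assembly 14, 11, 15 and 3 rose and 2, 5, 2 and 4 fell. In normal culture with IL-1β the assembly factors Mettl17 (0.76) and Noa1 (0.68) rose and Ngrn fell by 0.59. Of 19 genes of mitochondrial DNA maintenance, transcription and RNA, 12, 10, 8 and 5 rose and 0, 1, 1 and 1 fell, with Lrpprc, which stabilises mitochondrial mRNA, at 0.62 and Polrmt, the mitochondrial RNA polymerase, at 0.42 in normal culture with IL-1β. Of 10 tested regulators of mitochondrial biogenesis 6, 6, 2 and 3 rose and 2, 2, 2 and 1 fell. There Myc, a regulator of cell growth, rose by 1.10 in normal culture with IL-1β (adjusted p 4.17e-13) and fell by 0.31 in untreated co-culture (adjusted p 8.61e-05). In untreated normal culture, the ribosomal proteins with other symbols, assembly genes, DNA and RNA genes, biogenesis regulators and translation factors rose less often than all tested genes (33.1%). So did the biogenesis regulators in untreated co-culture (36.6%). In normal culture with IL-1β, assembly genes and translation factors rose about as often as all tested genes (37.1%). The mitochondrially encoded genes themselves were not analysed here. Without replicate 3 of both IL-1β groups at 72 h, rises in co-culture and normal culture with IL-1β numbered 19 and 17 of the import and chaperone genes, 5 and 2 of the translation factors, 14 and 8 of the assembly genes, 11 and 11 of the genes of mitochondrial DNA and RNA, 7 and 6 of the biogenesis regulators and 3 and 3 of the other ribosomal proteins. Of the genes of these lists named above, Chchd1 alone lost its call in normal culture, at 0.13 (adjusted p 0.193).

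IL-1β was compared with no cytokine in each culture and at each time, to ask how the cytokine changed the chondrocytes. The 78 genes split, with more lower than higher in each comparison as deposited and in TPM, but with more higher than lower at 72 h in both cultures with median-of-ratios scaling. At 36 h in normal culture 8 genes were higher and 37 lower with IL-1β, where 25.9% of all tested genes were higher and 41.5% lower. The median log2 difference was -0.15, against -0.086 over all tested genes. At 36 h in co-culture 6 were higher and 21 lower, against a background of 23.4% and 35.3%. At 72 h in normal culture 8 were higher and 19 lower, against 23.1% and 40.3%, and at 72 h in co-culture 3 were higher and 8 lower, against 18.5% and 30.6%. In the short class 28% of all genes were higher and 26.4% lower at 72 h in normal culture, and 19.7% and 21.1% in co-culture. Of the 56 short genes among the 78, 8 were higher and 11 lower in normal culture, and 3 and 5 in co-culture. At 36 h 7 of these 56 were higher and 22 lower in normal culture, against 25.3% and 39.2% of short genes. In co-culture 4 were higher and 11 lower, against 24.5% and 29.8%. As deposited, with all libraries, the share of lower genes among the 78 exceeded its background only at 36 h in normal culture (47.4%). There the 56 short genes were lower about as often as all short genes. Of the 14 in the middle class 8 were lower, against 45.2% of middle genes, and of the 8 in the long class 7 were, against 40.2%. The shares of higher genes, 3.85% to 10.3%, were below theirs in all 4 comparisons.

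These counts moved with the scaling. Rescaled to TPM, which sets all library sums equal, 7 genes were higher and 51 lower at 36 h in normal culture, 4 and 36 at 36 h in co-culture, 4 and 43 at 72 h in normal culture, and 1 and 38 at 72 h in co-culture. Of all tested genes 21.6%, 18.5%, 16.5% and 14.1% were then higher and 46.9%, 43.5%, 53.4% and 44.8% lower, in that order. In TPM the share of lower genes among the 78 was thus clearly above that of all tested genes only at 36 h in normal culture. In the other comparisons it was near that of all tested genes. With median-of-ratios scaling, which sets the libraries equal by their typical gene, 14 were higher and 32 lower, 9 and 13, 16 and 9, and 5 and 4, in the same order. There 30.6%, 26.6%, 29.7% and 21.4% of all tested genes were higher and 35.6%, 30%, 31.9% and 24.3% lower. The share of lower genes among the 78 was then above that of all tested genes only at 36 h in normal culture. At 72 h in normal culture TPM moved the median of all tested genes to -0.20, against -0.082 as deposited, and the median of the 78 genes stood 0.029 above that of all genes in both. That median of the 78 genes was -0.053 as deposited and turned to 0.026 with median-of-ratios scaling. Replicate 3 weighed on the 72 h counts as well. In normal culture 33 genes were lower and 4 higher without replicate 3 of the IL-1β group, 9 lower and 14 higher without its replicate 1, and 5 higher without replicate 2 of the untreated group. In co-culture at 72 h, 13 were lower and 1 higher without replicate 3 of the IL-1β group, 4 were lower without its replicate 1, and 5 or 4 without replicate 1 or 3 of the untreated group. At 36 h, 12 and 13 were lower in co-culture without replicates 2 and 3 of the IL-1β group, and 5 were higher in normal culture without replicate 2 of the IL-1β group. Without replicate 3 of both IL-1β groups, 38 were lower in normal culture and 19 in co-culture at 72 h. Shares of all tested genes are not given here for fits that left libraries out, so such counts have no background beside them.

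Mrpl47, Mrpl40, Mrps11 and Mrpl2 were lower with IL-1β in all 4 comparisons, which share no library, against 18.2% of all tested genes. Mrpl53 and Mrpl39 were higher in all 4, against 11.3%. Another 6 genes were lower in 3 comparisons and 2 were higher in 3, against 9.8% and 4.61% of all tested genes. In 22 genes no IL-1β comparison passed, a count without the share of all tested genes beside it, and no gene passed in both directions. Among these 22, the largest mean log2 differences over the 4 comparisons were those of Mrps15 (-0.13), Mrpl37 (-0.11), Mrpl23 (-0.10), Mrps10 (0.10), Mrpl38 (0.10) and Mrps18c (-0.10).

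Mrpl40, a large-subunit protein without a bacterial counterpart, had the steadiest decrease. At 72 h it had 20.6, 22.6 and 24.1 FPKM in co-culture with IL-1β against 26.8, 27.0 and 27.8 FPKM without, and 20.01, 20.9 and 22.5 FPKM in normal culture with IL-1β against 27.6, 27.8 and 28.3 FPKM without. At 36 h it had 18.4, 17.8 and 17.0 FPKM in co-culture with IL-1β against 21.0, 20.2 and 21.4 FPKM without, and 15.0, 16.1 and 15.6 FPKM in normal culture with IL-1β against 22.2, 20.6 and 20.1 FPKM without. Every IL-1β library lay below every untreated library of its comparison. The log2 differences were -0.27, -0.39, -0.23 and -0.40 (SE 0.053), with adjusted p between 6.13e-07 and 0.000884, and the call held in each of the 6 fits per comparison that left out 1 library.

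Mrpl47, the counterpart of bacterial L29 near the exit of the peptide tunnel, fell by 0.23 and 0.38 at 72 h in co-culture and normal culture, and by 0.42 and 0.51 at 36 h (adjusted p 0.0281, 0.000539, 0.000192 and 1.63e-05). It had 11.3, 12.6 and 11.2 FPKM in normal culture with IL-1β at 36 h, against 19.1, 15.9 and 16.2 FPKM without. The groups did not overlap in any of the 4 comparisons. The call at 72 h in co-culture held in 3 of 6 fits that left out 1 library and was lost without replicate 3 of the IL-1β group or replicates 2 or 3 of the untreated group. Mrpl47 shares 452 exonic bases with Actl6a on the other strand, so its level is uncertain.

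Mrps11, the counterpart of bacterial S11 on the small subunit, had 11.3, 10.6 and 11.3 FPKM in normal culture with IL-1β at 36 h against 18.1, 16.2 and 15.9 FPKM without, a log2 difference of -0.56 (adjusted p 1.95e-06). Its decreases in the other 3 comparisons were smaller, 0.20 to 0.23 (adjusted p 0.015 to 0.0283), with overlap at 72 h in normal culture, and there the call held in 3 of 6 fits that left out 1 library. Mrpl2, the counterpart of bacterial L2 at the core of the large subunit, fell by 0.41 at 36 h in normal culture (adjusted p 0.000146) and by 0.20 to 0.29 elsewhere, and its call at 72 h in normal culture held in 1 of 6 such fits. With median-of-ratios scaling the calls of Mrps11 were lost at 72 h in both cultures, and those of Mrpl2 at 72 h in normal culture and at 36 h in co-culture.

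Mrpl54, the gene with the largest rise in time, was also the one with the largest decrease with IL-1β at 36 h. Its log2 differences were -0.51 in co-culture (adjusted p 8.4e-05) and -0.67 in normal culture (adjusted p 2.09e-06), without overlap. At 72 h they were -0.01 and 0.09 (adjusted p 0.946 and 0.446), and the libraries overlapped. Other marked decreases at 36 h in normal culture were those of Mrps26 (-0.57), Mrpl50 (-0.49) and Mrps18b (-0.46), with adjusted p of at most 1.18e-05. Mrps26 and Mrpl50 have no bacterial counterpart. In co-culture at 36 h Mrpl12 and Mrps18b fell by 0.40 each (adjusted p 0.00265 and 0.000108). At 72 h Mrpl50 and Mrpl16 fell by 0.31 and 0.30 in normal culture (adjusted p 0.000117 and 0.00532), and Mrps16 and Mrpl41 fell by 0.25 and 0.23 in co-culture (adjusted p 0.0107 and 0.0179).

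Mrpl34, a small basic protein of the large subunit, was the clearest gene in the other direction. In normal culture it had 31.6, 33.9 and 31.8 FPKM with IL-1β at 36 h, against 20.1, 20.3 and 18.5 FPKM without, and 32.1, 31.8 and 39.4 FPKM with IL-1β at 72 h, against 25.0, 22.8 and 24.9 FPKM without. Co-cultures had 29.1, 27.9 and 28.8 FPKM with IL-1β at 36 h, against 19.9, 20.5 and 18.5 FPKM without, and 29.0, 29.8 and 32.6 FPKM with IL-1β at 72 h, against 25.4, 29.1 and 27.3 FPKM without. The groups overlapped at 72 h in co-culture alone. Log2 differences were 0.70 ± 0.069 and 0.48 ± 0.069 in normal culture at 36 h and 72 h, and 0.52 ± 0.069 and 0.15 ± 0.069 in co-culture (SE, adjusted p 8.48e-09, 2.65e-06, 1.03e-06 and 0.068). Mrpl34 is on the plus strand of chromosome 8 (chr8:71464959-71465747).

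Mrpl53, a large-subunit protein without a bacterial counterpart, had 42.4, 49.4 and 46.2 FPKM with IL-1β at 36 h in normal culture, against 37.7, 33.2 and 31.0 FPKM without. In co-culture at 72 h it had 42.3, 44.8 and 45.0 FPKM with IL-1β, against 38.1, 35.9 and 35.7 FPKM without. In all 4 comparisons its IL-1β libraries lay above the untreated ones, with log2 differences of 0.26, 0.30, 0.36 and 0.43 (adjusted p 0.00383, 0.000723, 0.000156 and 1.42e-05). All 695 exonic bases of Mrpl53 are shared with Gm42688 on the same strand, so its level is uncertain. Mrpl39, which resembles a threonyl-tRNA synthetase in part, differed by 0.13 to 0.22, and its call at 72 h held in 1 of 6 fits that left out 1 library in co-culture (adjusted p 0.0499 with all libraries) and in 3 of 6 in normal culture, and was lost at 72 h in both cultures after rescaling to TPM.

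Mrpl45, which binds the inner membrane near the peptide exit, had 24.5, 22.2 and 24.5 FPKM with IL-1β at 72 h in normal culture, against 16.2, 15.8 and 17.9 FPKM without. That log2 difference of 0.49 ± 0.061 (adjusted p 3.83e-07) was the largest rise with IL-1β at 72 h. Mrpl14, the counterpart of bacterial L14 between the subunits, was higher by 0.35 there (adjusted p 0.000946), and Mrps21, the second most expressed gene, by 0.40 at 36 h in co-culture (adjusted p 0.000381). Mrpl57 was higher by 0.19 at 36 h in co-culture (adjusted p 0.0425), and Mrpl11 and Mrps21 by 0.26 and 0.25 at 36 h in normal culture (adjusted p 0.0048 and 0.0154). Without replicate 3 of both IL-1β groups, the differences at 72 h in normal culture were 0.47 for Mrpl45, 0.39 for Mrpl34 and 0.23 for Mrpl14 (adjusted p 6.49e-07, 6.33e-06 and 0.0013). At 72 h that fit ended the calls of Mrpl39 in both cultures, of Mrpl45 and Mrpl47 in co-culture and of Mrpl43 in normal culture. The genes that passed as lower in it but not with all libraries numbered 12 in co-culture and 19 in normal culture, and included Mrps34, Mrpl37 and Mrps15 in both and Mrpl23 in normal culture.

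The cytokine moved much else in these cells. All 11 tested chondrocyte markers were lower with IL-1β in each of the 4 comparisons, with summed levels of 288 to 332 and 294 to 303 FPKM with IL-1β at 72 h in co-culture and normal culture, against 1048 to 1115 and 1077 to 1146 FPKM without. At 36 h the sums were 307 to 315 and 303 to 321 FPKM with IL-1β, against 868 to 894 and 789 to 821 FPKM without. The skeletal muscle markers were all higher with IL-1β at 72 h, 8 of 8 in both cultures. At 36 h, 3 of the 8 were higher and 3 lower in co-culture, and 3 were higher and 2 lower in normal culture. Of the 6 macrophage markers 1 was higher and 5 lower at 72 h in both cultures, and 2 were higher and 3 lower at 36 h in both. Whether a change in the makeup of the cultures had a part in the values of the 78 genes was not tested. 

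The lists above were read in the 4 IL-1β comparisons in the order normal culture at 36 h and 72 h and co-culture at 36 h and 72 h. Of all tested genes 41.5%, 40.3%, 35.3% and 30.6% were lower there, and 25.9%, 23.1%, 23.4% and 18.5% were higher. Of 24 import and chaperone genes 15, 7, 13 and 4 were lower and 4, 5, 3 and 3 higher. Of 28 assembly genes 13, 10, 9 and 7 were lower and 4, 4, 3 and 3 higher. Of 19 genes of mitochondrial DNA and RNA 11, 9, 9 and 4 were lower and none was higher, and of 13 translation factors 6, 5, 5 and 3 were lower and none was higher. Of 10 biogenesis regulators 6, 6, 6 and 5 were lower and 2, 3, 1 and 2 higher, and of 5 other ribosomal proteins 2, 1, 1 and 1 were lower and 0, 1, 1 and 1 higher. Without replicate 3 of both IL-1β groups at 72 h, 13 import and chaperone genes were lower and 2 higher in normal culture at 72 h, and 7 were lower and 2 higher in co-culture at 72 h. At 36 h in normal culture Hspa9, the motor of protein import, fell by 0.95, Lonp1, the matrix protease, by 0.89, Lrpprc by 0.68 and Mettl17 by 0.86, with adjusted p of at most 7.7e-09.

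Co-culture with dermal fibroblasts was compared with normal culture to ask what the fibroblasts changed in the chondrocytes. Few of the 78 genes passed the test. Without IL-1β at 72 h none passed in limma, where 1.72% of all tested genes were higher and 1.68% lower, and 8 genes had an unadjusted p under 0.05, which is 10.3% of the 78 against 19.3% of all tested genes. All 8 were higher in co-culture. Of these Mrpl14 had the smallest adjusted p, 0.0673, with 30.1, 29.2 and 30.5 FPKM in co-culture and 25.3, 23.6 and 24.8 FPKM in normal culture, which did not overlap. The median log2 difference was 0.063, against -0.0060 over all tested genes, and 20 genes were above normal culture in all 3 libraries, against 15.4% of all tested genes.

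Without IL-1β at 36 h, Mrps6 and Mrpl36 were lower in co-culture and none was higher, against 9.20% and 6.28% of all tested genes. Mrps6 had 21.6, 21.7 and 22.2 FPKM in co-culture and 29.8, 27.1 and 29.4 FPKM in normal culture, a log2 difference of -0.38 ± 0.077 (SE, adjusted p 0.00135). Mrpl36 differed by -0.25 ± 0.077 (adjusted p 0.0321), and its call was lost without replicate 2 or 3 of normal culture or replicate 1 or 3 of co-culture, which left 1 gene in each case.

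With IL-1β at 36 h, Mrpl40 alone passed, higher in co-culture by 0.17 ± 0.053 (adjusted p 0.0409), where 6.38% of all tested genes were higher and 4.17% lower. It had 18.4, 17.8 and 17.0 FPKM in co-culture and 15.0, 16.1 and 15.6 FPKM in normal culture. Those values did not overlap, yet the call was lost without replicate 1 or 3 of normal culture and without replicate 1 or 2 of co-culture, which left 0 genes, while 2 passed without replicate 2 of normal culture.

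With IL-1β at 72 h, Mrps22 (0.25 ± 0.080, adjusted p 0.0416) and Mrpl50 (0.20 ± 0.060, adjusted p 0.0343) were higher in co-culture and none was lower, against 7.22% and 5.26% of all tested genes. Mrps22 had 16.2, 17.7 and 18.1 FPKM in co-culture and 12.4, 14.5 and 16.4 FPKM in normal culture, which overlapped. Mrpl50 had 17.6, 19.3 and 19.6 FPKM in co-culture and 14.7, 16.9 and 17.4 FPKM in normal culture. This comparison rested on single libraries: 18 genes were higher without replicate 3 of normal culture, 0 without its replicate 1 or without replicate 2 or 3 of co-culture, and 11 without replicate 3 of either culture, while 2 were lower without replicate 2 of normal culture or replicate 3 of co-culture. Both calls were lost with median-of-ratios scaling. Same-numbered libraries of these groups deviated together, and with the replicate number as a block 2 genes were higher and 1 lower.

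Whether IL-1β acted differently in co-culture was tested as an interaction. At 36 h no gene passed in limma, where 4.73% of all tested genes had a positive and 2.23% a negative interaction. An unadjusted p was under 0.05 for 10 genes, all positive, while 21.3% of all tested genes had one, and the smallest adjusted p was 0.0685, for Mrps6. Without replicate 2 of normal culture with IL-1β 2 genes passed, and without replicate 2 of co-culture with IL-1β 1 passed. At 72 h Mrpl45 passed, with an interaction of -0.31 ± 0.086 (SE, adjusted p 0.0468), where 1.68% of all tested genes were positive and 1.43% negative. Its IL-1β differences were 0.17 in co-culture and 0.49 in normal culture. The call was kept in 3 of the 12 fits that left out 1 library. These were the fit without replicate 2 of normal culture with IL-1β (2 negative genes), that without replicate 3 of co-culture with IL-1β (4 negative genes) and that without replicate 3 of untreated normal culture (1 negative gene), and 1 positive gene passed without replicate 3 of normal culture with IL-1β.

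The IL-1β difference at 72 h was set against that at 36 h in each culture. In normal culture 17 genes had a more positive difference at 72 h and 1 a more negative one, where 23.7% and 21.6% of all tested genes did. In co-culture 4 were more positive and 3 more negative, against 14.1% and 14.8%. Mrpl54 was foremost in both, with 0.75 ± 0.135 in normal culture (adjusted p 0.00011) and 0.50 ± 0.135 in co-culture (adjusted p 0.00716). Mrps18b followed the same course, with 0.42 and 0.37 (SE 0.107, adjusted p 0.00262 and 0.0112). In normal culture Mrpl14 (0.52), Mrps26 (0.45) and Mrpl48 (0.37) were also among the 5 largest, and in co-culture Mrps35 (0.35) and Mrpl50 (0.24) passed too. Without replicate 3 of both IL-1β groups at 72 h, the calls of Mrpl54, Mrps18b, Mrpl14, Mrps26, Mrpl48 and Mrps35 were kept, with 0.66 for Mrpl54 in normal culture (adjusted p 0.000174) and 0.42 in co-culture (adjusted p 0.011). That of Mrpl50 was lost, at 0.22 (adjusted p 0.0571). Mrpl18 was more negative in both, with -0.26 in each, and Mrpl34 (-0.37) and Mrps21 (-0.38) in co-culture. The counts rested on single libraries. In normal culture 9 genes were more positive and 5 more negative without replicate 3 of the IL-1β group at 72 h, 32 were more positive without its replicate 1, and 10 without replicate 1 of the untreated group at 36 h. There 0 were more negative without replicate 2 of either the untreated group at 36 h or the IL-1β group at 72 h, and 2 without replicate 2 of the untreated group at 72 h or replicate 1 of the IL-1β group at 36 h. In co-culture 2 were more positive without replicate 3 of the IL-1β group at 72 h, replicate 2 of the untreated group at 72 h or replicate 2 of the IL-1β group at 36 h. There 1 was more negative without replicate 1 or 2 of the IL-1β group at 72 h or replicate 1 of the untreated group at 72 h.

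With all libraries, none of the 12 direct comparisons passed in 7 of the 78 genes, namely Mrpl30, Mrpl23, Mrpl22, Mrps10, Mrpl24, Mrpl52 and Mrpl44. The matching share of all tested genes is not given here. Mrpl52 and Mrpl24 were among the 7 genes with a mean above 50 FPKM, as was Mrpl30.

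The genes lie on 17 chromosomes, and all 78 are annotated as protein coding. A protein-coding neighbour begins within 1000 bases on the other strand, head to head, for 33 of them (42.3%), against 13.5% of 16456 table genes. Mrps11 and Mrpl46 are such a pair on chromosome 7 (chr7:78783119-78792989 on the plus strand and chr7:78775236-78783531 on the minus strand), and their annotated spans overlap. At 72 h, compared with 36 h, Mrps11 rose in all 4 conditions and Mrpl46 in 3, by 0.45, 0.42 and 0.37, while in untreated normal culture Mrpl46 had 0.11. With IL-1β at 36 h in normal culture both were lower, by 0.56 and 0.35. Of the 30 genes whose neighbour was tested, 23, 23, 23 and 12 rose at 72 h in co-culture with IL-1β, normal culture with IL-1β, untreated co-culture and untreated normal culture. The neighbour of 12, 14, 15 and 4 of these rose too and that of 2 in each condition fell. Of all tested genes 35.4%, 37.1%, 36.6% and 33.1% rose and 28.9%, 32.0%, 24.9% and 25.3% fell. In untreated normal culture the share of neighbours that rose was near that of all tested genes. With IL-1β, 17, 8, 10 and 7 of the 30 were lower in normal culture at 36 h and 72 h and co-culture at 36 h and 72 h. The neighbour of 6, 1, 1 and 3 of these was lower and that of 2, 1, 2 and 1 higher. Of all tested genes 41.5%, 40.3%, 35.3% and 30.6% were lower there, and 25.9%, 23.1%, 23.4% and 18.5% higher. Mrps11 and Mrpl46 are counted as each other's neighbour, and whether pairs moved together was not tested. Mrpl54 rose while Apba3 fell by 0.23 in untreated normal culture, and both rose in normal culture with IL-1β.

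The counts were also read by promoter motif, for the 3 motifs found in at least 8 of the 69 genes. Of the 26 with the ETS motif 17, 18, 21 and 12 rose at 72 h, and of the 43 without it 29, 28, 30 and 17 did. The order is co-culture with IL-1β, normal culture with IL-1β, untreated co-culture and untreated normal culture, here and for the other motifs. In normal culture at 36 h, 5 of the 26 were higher and 12 lower, with IL-1β, and 3 of the 43 were higher and 20 lower. Of the 29 with a GC box 23, 21, 26 and 14 rose, and of the 40 without one 23, 25, 25 and 15 did. With IL-1β in that comparison 1 of the 29 was higher and 14 lower, and 7 of the 40 were higher and 18 lower. Of the 8 with the YY1 motif 8, 6, 8 and 3 rose, and of the 61 without it 38, 40, 43 and 26 did. With IL-1β 0 of the 8 were higher and 5 lower, and 8 of the 61 were higher and 27 lower. These counts are a description and were not tested.

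Reads of 17 of the 78 genes could be shared with another protein-coding gene that overlaps their exons, and 6 RefSeq pseudogenes carry the name of a member, for Mrpl23, Mrpl27, Mrpl48 and Mrps36. None of these pseudogenes is a row of the table. The levels of these genes are uncertain to that extent.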

How the data were processed

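Poly(A)-selected RNA of 24 libraries in 8 groups of 3 was analysed from the deposited FPKM values, which the authors made from reads placed on GRCm38, per the submitters' processing notes. The aligner, the counting, its use of strand and the gene annotation are not given in the sources used here. Because FPKM values are not counts, no count test was run, and no interval that needs depth is given.

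The values were tested with limma 3.58.1 (R 4.3.3) on log2(FPKM + 1), with 8 group means over all 24 libraries (16 residual degrees of freedom) and a trend of variance on level. Genes with at least 1 FPKM in at least 3 libraries were tested, p-values were adjusted by Benjamini-Hochberg over all 12178 of them, and calls were made at an adjusted p under 0.05. Log2 differences understate the change of low genes. There were 16 comparisons: 4 of IL-1β, 4 of co-culture, 4 of time, 2 interactions and 2 of the IL-1β difference between times. The fit was tested on simulated data.

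The alternatives were a pseudocount of 0.1, no filter, a filter at 5 FPKM, TPM, median-of-ratios scaling, the replicate number as a block, the compared groups alone, and leaving out each library. TPM and median-of-ratios scaling kept the same genes. The numbers were taken to pair the libraries where all 3 same-numbered correlations of deviations exceeded 0.1, which held in 1 of 12 comparisons, co-culture against normal culture with IL-1β at 72 h (0.364, 0.179 and 0.577).

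The genes, the gene lists and the tests were chosen with earlier results of these data known. Values are given for the genes with the 5 highest and 5 lowest means, the 4 largest called changes of each direction in a comparison, calls against the main direction, up to 6 genes each of those called in all 4 and in none of the IL-1β comparisons, by size of change, and the Mrps18 paralogs. Mrpl30, Mrpl24, Mrpl23, Mrpl46, Mrps12 and Mrpl39 at single comparisons were named after their values were seen. Positions come from GENCODE and promoters from RefSeq, both on GRCm38. Figures were drawn with matplotlib 3.10.9 in Python 3.11.15, with pandas 2.3.3.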

Additional observations from a re-analysis of the deposited data

Results flagged for a closer look

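A test of the difference itself passed for the following genes, on the log2(FPKM + 1) scale and with limma's adjusted p over all tested genes. Between cultures, the IL-1β difference of Mrpl45 at 72 h was smaller in co-culture than in normal culture by an interaction of -0.31 (adjusted p 0.0468), a call kept in 3 of the 12 fits that left out 1 library, where 1.43% of all tested genes had a negative interaction.

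Between times in normal culture, the IL-1β difference at 72 h minus that at 36 h was positive for 17 genes, 21.8% of the 78 against 23.7% of all tested genes, and the count ran from 9 to 32 when 1 library was left out. It was largest for Mrpl54 at 0.75 (adjusted p 0.00011), followed by Mrpl14 at 0.52 (0.00118), Mrps26 at 0.45 (0.00702), Mrps18b at 0.42 (0.00262) and Mrpl48 at 0.37 (0.00921). Mrpl17, Mrps28 and Mrps11 had 0.36, 0.36 and 0.35, with adjusted p of 0.00897, 0.0232 and 0.014. Mrpl45, Mrps6, Mrpl27 and Mrpl58, the last of which releases stalled peptides, had 0.34, 0.34, 0.32 and 0.32, with adjusted p of 0.00245, 0.0146, 0.0207 and 0.036. Mrpl13, Mrps25, Mrps5, Mrpl20 and Mrps30 had 0.30, 0.30, 0.27, 0.24 and 0.24, with adjusted p of 0.0392, 0.0486, 0.0352, 0.0464 and 0.0326. It was negative for Mrpl18 alone, at -0.26 (adjusted p 0.0186), against 21.6% of all tested genes.

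Between times in co-culture, it was positive for Mrpl54 at 0.50 (adjusted p 0.00716), Mrps18b at 0.37 (0.0112), Mrps35 at 0.35 (0.0264) and Mrpl50 at 0.24 (0.0362). It was negative for Mrps21 at -0.38 (adjusted p 0.0237), Mrpl34 at -0.37 (0.0067) and Mrpl18 at -0.26 (0.0313). These are 4 and 3 of the 78 genes, against 14.1% and 14.8% of all tested genes, and the counts ran from 2 to 6 and from 1 to 3 when 1 library was left out. Without replicate 3 of both IL-1β groups at 72 h, 1 positive call was lost and 1 gained, and 4 negative calls were gained.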

How the results depend on the processing

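Over all pairs of a called gene and an alternative, 4365 calls were kept, 490 were lost and 0 reversed. Most alternatives reuse nearly all the same values, so few reversals could arise. With IL-1β, 34 of 45 and 13 of 27 calls at 36 h and 72 h in normal culture were kept in every fit that left out 1 library. In co-culture these were 15 of 27 and 3 of 11. Of the calls of co-culture against normal culture, 1 of 2 without IL-1β at 36 h was kept in every such fit. With IL-1β, 0 of 1 at 36 h and 0 of 2 at 72 h were. In the time comparisons, 53, 57, 51 and 33 of the 53, 57, 53 and 33 calls in co-culture with IL-1β, untreated co-culture, normal culture with IL-1β and untreated normal culture were kept in TPM, 51, 55, 53 and 32 with median-of-ratios scaling, and 45, 48, 44 and 22 in every fit that left out 1 library. The depth is unknown, so its limit on the low genes could not be given. The cause was not tested for any count below.

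In TPM, higher and lower genes with IL-1β were 4 and 43 at 72 h in normal culture and 1 and 38 in co-culture, and 36 were lower at 36 h in co-culture. In TPM 1 gene was higher in co-culture without IL-1β at 36 h and at 72 h, 1 was lower in co-culture with IL-1β at 36 h and at 72 h, 5 and 2 were lower at 72 h than at 36 h in normal culture and co-culture with IL-1β, 1 interaction was positive at 36 h and 0 were negative at 72 h, and 5 differences between times were negative in normal culture. With median-of-ratios scaling, 14 genes were higher with IL-1β at 36 h in normal culture, 16 were higher and 9 lower at 72 h in normal culture, 13 were lower at 36 h in co-culture, and 5 were higher and 4 lower at 72 h in co-culture. With it, 1 was lower in co-culture without IL-1β at 36 h, 0 were higher and 1 lower in co-culture with IL-1β at 72 h, 2 were lower in time in each IL-1β culture, and 2 interactions were negative at 72 h. Without a filter, 1 gene was higher in co-culture with IL-1β at 72 h and 0 interactions were negative at 72 h.

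With the replicate number as a block, 1 gene was lower in co-culture with IL-1β at 72 h, where the numbers pair the libraries, and elsewhere 2 and 1 were lower in time in normal culture and co-culture with IL-1β and 1 interaction was positive at 36 h; it moved no other count by over 1.5 times. Fitted on the compared groups alone, 4 genes were higher and 9 lower with IL-1β at 72 h in normal culture and 10 higher at 36 h in co-culture. Of the 27 and 11 calls with IL-1β at 72 h in normal culture and co-culture, 13 and 9 were kept in that fit. At 36 h all 45 and 27 were kept. Of the time calls with IL-1β, 44 of 53 were kept in normal culture and 53 of 53 in co-culture. Of the called IL-1β differences between times, 10 of 18 were kept in normal culture and 7 of 7 in co-culture. In that fit co-culture without IL-1β gave 2 higher and 7 lower at 36 h and 7 higher at 72 h, co-culture with IL-1β gave 4 higher and 1 lower at 36 h and 0 higher at 72 h, and 1 was lower in time in untreated normal culture. It gave 4 positive and 1 negative interactions at 36 h and 0 negative at 72 h, and 10 positive and 0 negative differences between times in normal culture and 8 positive in co-culture.

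Alternatives added after seeing the data were the compared groups with the replicate block and the fit without replicate 3 of both IL-1β groups at 72 h, which was also run for the gene lists. The first gave 4 higher and 9 lower genes with IL-1β at 72 h in normal culture, 14 lower in co-culture, and 0 higher in co-culture with IL-1β. The second gave 38 lower with IL-1β in normal culture, 1 higher and 19 lower in co-culture, 11 higher in co-culture with IL-1β, 4 and 2 lower in time in normal culture and co-culture, 1 positive and 2 negative interactions, 11 positive and 8 negative differences between times in normal culture, and 7 negative in co-culture.

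Leaving out each library in turn, higher and lower genes with IL-1β ranged over 5 to 9 and 33 to 40 at 36 h and 4 to 14 and 9 to 33 at 72 h in normal culture, and over 4 to 7 and 12 to 19 at 36 h and 1 to 3 and 4 to 13 at 72 h in co-culture. Rises in time ranged over 45 to 56, 44 to 61, 52 to 56 and 26 to 32 in co-culture with IL-1β, normal culture with IL-1β, untreated co-culture and untreated normal culture, and falls over 0 to 2 and 1 to 4 in the first 2 of these. Co-culture against normal culture with IL-1β gave 0 to 2 higher at 36 h and 0 to 18 higher and 0 to 2 lower at 72 h, and without it 1 to 2 lower at 36 h. Interactions ranged over 0 to 2 positive at 36 h and 0 to 1 positive and 0 to 4 negative at 72 h, and differences between times over 9 to 32 positive and 0 to 5 negative in normal culture and 2 to 6 and 1 to 3 in co-culture.

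As percent of the mean over all libraries, the summed level was 90.2% as deposited in co-culture with IL-1β at 36 h, 88.3% in TPM and 93.1% with median-of-ratios scaling. It was 92.6% as deposited and 95.5% in TPM in untreated co-culture at 36 h, 112.3% and 109.3% with median-of-ratios scaling at 72 h, and 95.3% and 99.0% in TPM in untreated normal culture at 36 h. In untreated normal culture at 72 h it was 107.4% as deposited, 111.7% in TPM and 103.6% with median-of-ratios scaling.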
